A study of Homo sapiens with 22 samples.

Results

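The cytosolic ribosomal protein genes were followed across a set of renal cancer cell lines and CRISPR interference derivatives. The members were the genes whose listed symbol is RPL or RPS followed by a number, with or without a closing A or X, together with RPLP0, RPLP1, RPLP2 and RPSA. That rule took 77 of the 25343 listed genes, 31 for proteins of the small (40S) subunit and 46 for proteins of the large (60S) subunit. Polyadenylated RNA was sequenced from 22 libraries in 7 groups, and every group was described by the labels as a renal cancer cell line grown without treatment in RPMI with 10% FBS to 80% confluence.

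The guide groups were iMAE-1.1 (4 libraries), iMAE-1.2 (4 libraries) and iMAE-126 (2 libraries), each 786-M1A cells with CRISPR interference and a guide of that name. SC (6 libraries) was 786-M1A with CRISPR interference and a non-targeting guide. CRISPR interference uses a Cas9 that cannot cut, fused to a repressor, to lower transcription at the guide's target. The labels do not name the targets of the iMAE guides, so the targeted gene was not checked here. The lines without a guide were OS-LM1, 786-M1A and 786-O, with 2 libraries each. By general knowledge of these lines, 786-O comes from a clear cell renal carcinoma, 786-M1A is a metastatic derivative of it, and OS-LM1 is a metastatic line of another origin. Each line is a single cultured population, and no source used here says that libraries of the same group were grown apart, so a p-value reflects differences among libraries that can be technical.

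A ribosome carries a single copy of most of its proteins, and these proteins are encoded by genes scattered over nearly all chromosomes. Their mRNAs are short, abundant in growing cells and usually begin with a C followed by a run of pyrimidines, the terminal oligopyrimidine motif, through which the kinase mTOR and the RNA-binding protein LARP1 control their translation. The level of such an mRNA is therefore a poor guide to how much protein is made, and the values here are of mRNA alone.

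The total of estimated counts per library was 9.06 to 52.7, in units of 1e6. The kidney lineage factor PAX8 stood at 87.1 to 262 TPM (a transcript level divided by length, scaled to a sum of 1e6 in each library), and the epithelial keratins KRT8 and KRT18 at 494 to 839 and 234 to 460 TPM. The T cell marker CD3E was at 0 in all 22 libraries, and the endothelial marker CDH5 and the fibroblast marker DCN did not exceed 0.02 and 0.13 TPM. The leukocyte marker PTPRC did not exceed 0.70 TPM, while CD68, a lysosomal protein rich in macrophages, stood at 17.6 to 94.3 TPM. The hypoxia-induced carbonic anhydrase CA9, a marker of clear cell carcinoma, averaged 31.1 TPM in OS-LM1 and at most 0.135 TPM in the other groups. Within SC, replicates 1 and 2 stood apart from replicates 3 to 6: the mean chi-square per gene was 61.2 to 87.1 between the sets and as low as 2.24 within them. The labels do not name this split, which was known from earlier results of these data. A division of both iMAE-1 guide groups by replicate number is described with the guides.

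Ribosomal protein mRNAs were among the most abundant transcripts. Of the 77 members, 51 were among the 100 genes with the highest mean TPM over the 22 libraries and 68 among the highest 200, and the member with the lowest mean TPM ranked 621. By group means, 45 members (786-M1A) to 52 (SC and both iMAE-1 guides) were among the 100 highest genes, and 64 to 70 among the highest 200. RPS2, a 40S protein near the mRNA entry channel, led with a mean of 4526 TPM over the 22 libraries (range 2780 to 5936 TPM). It came first in 4 of the 7 groups. In OS-LM1 the stalk protein RPLP1 (5395 TPM) and RPL41 (4842 TPM) led, and RPS2 ranked 10 among the members at 2920 TPM. RPL35 (4507 TPM) led in iMAE-1.1 and RPS24 (4533 TPM) in iMAE-1.2, where RPS2 was at 4343 and 4176 TPM. Over the 22 libraries RPS2 was followed by RPS24 (4057 TPM) and RPS18 (3936 TPM) of the 40S subunit and by RPL35 (3851 TPM), which sits near the exit of the nascent chain. The lowest mean levels were those of RPS23 (230 TPM, a protein of the decoding site), RPL27A (277 TPM), RPL13A (449.9 TPM) and RPL21 (494 TPM). RPS23 and RPL27A were listed with lengths of 3314 and 4879 bases against a median of 713 bases over the members, and TPM divides by that length. Ribosomal protein genes have many near-identical processed pseudogenes, which can make the order of such levels uncertain. For 40 of the 77, RPS2, RPL13A and RPL21 among them, the deposited estimated count was not exactly whole in at least 1 library, as RSEM can give where reads match more than 1 gene. Which sequences shared reads was not traced.

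Between groups, the level per length was steadiest for RPS12, RPL9 and RPS3. The SD of log2 TPM over the 7 group means was 0.0822 for RPS12, 0.0856 for RPL9 and 0.103 for RPS3, and RPS12 ranged only from 1604 to 2132 TPM over the libraries. Wide spreads were those of RPL13A, with an SD of 0.688, and RPS19, with 0.582. RPL13A averaged 1266 ± 136 TPM in OS-LM1 (SD, n = 2), against group means of 313 TPM in 786-M1A to 430.0 TPM in iMAE-126. RPL21 varied most among libraries of the same group: its normalised read count (CPM, counts per 1e6 of the scaled library total, not divided by length) was 116 and 265 in the OS-LM1 libraries and 119 and 47.9 in those of 786-M1A.

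Many members share a pyrimidine run at the listed transcription start, which is shown here because it is the feature that marks these mRNAs as a translational group. Of the 77 members, 62 have an entry in RefSeq's promoter windows (GRCh38.p14). In 46 of these 62 (74.2%), at least 1 listed start had a C as its first transcribed base and at least 5 C or T bases in a row from there, read on the gene's own strand, against 1404 of 27305 genes in all (5.14%). A run of at least 8 C or T bases between 10 bases before and 20 bases from the start was found in 53 of 62 members (85.5%), against 15.4% of all genes. The windows below run from 10 bases before to 20 bases from the listed start, 5′ to 3′ on the gene's strand, with the longest run of C or T in capitals. They belong first to RPL38, RPL36A, RPL34 and RPL14, among the 5 members that rose most in SC against 786-M1A. RPL13A and RPS19 rose most in OS-LM1 against 786-M1A, and RPLP0 and RPSA went the other way between the SC sets. Other members with large changes, such as RPL28 and RPS29, are not shown, and the listed start of RPS29 has a T as its first base.
RPL38 (chr17:74203668-74203697, plus strand): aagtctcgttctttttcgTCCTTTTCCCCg
RPL36A (chrX:101391001-101391030, plus strand): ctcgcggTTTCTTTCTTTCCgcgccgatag
RPL34 (chr4:108620566-108620595, plus strand): CTTTTTTCTTCCTCTTCCggggacgttgtc
RPL14 (chr3:40457329-40457358, plus strand): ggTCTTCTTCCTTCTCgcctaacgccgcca
RPL13A (chr19:49487598-49487627, plus strand): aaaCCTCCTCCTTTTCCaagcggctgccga
RPS19 (chr19:41860245-41860274, plus strand): ccccgtcgTTCCCTTTCCCCTggctggcag
RPLP0 (chr12:120201092-120201121, minus strand): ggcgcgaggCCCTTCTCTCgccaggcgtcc
RPSA (chr3:39406710-39406739, plus strand): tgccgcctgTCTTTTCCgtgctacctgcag
In each of the 8 windows the first transcribed base of the listed start, the base after the first 10, was a C. RPL34 and RPS19 each have a further listed start, not shown, whose first base is not a C. The run thus occurred both in members that rose and in members that fell or missed the threshold in the comparisons that follow, and a match of letters says nothing about use of the motif.

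The members together made up 12.2 to 16.1% of a library's TPM. The share averaged 14.3 ± 1.31% in iMAE-1.1 (SD, n = 4) and 14.2 ± 0.874% with the iMAE-1.2 guide (n = 4), and it was 15.4 ± 0.551% in iMAE-126 (n = 2) and 14.3 ± 0.948% in SC (n = 6). Among the lines it averaged 14.3 ± 0.807% in OS-LM1, 12.2 ± 0.0142% in 786-M1A and 13.2 ± 0.206% in 786-O (n = 2 each). Every SC library, from 13.0 to 15.2%, lay above both 786-M1A libraries, while the guide groups and SC overlapped. As a share of counts the members made up 6.16% with iMAE-1.1, 6.18% with iMAE-1.2, 5.84% with iMAE-126 and 5.76% in SC, and 5.50% in OS-LM1, 3.76% in 786-M1A and 4.14% in 786-O. In bulk RNA, fewer cells of a type and less RNA per cell cannot be told apart.

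**Figure D1:**
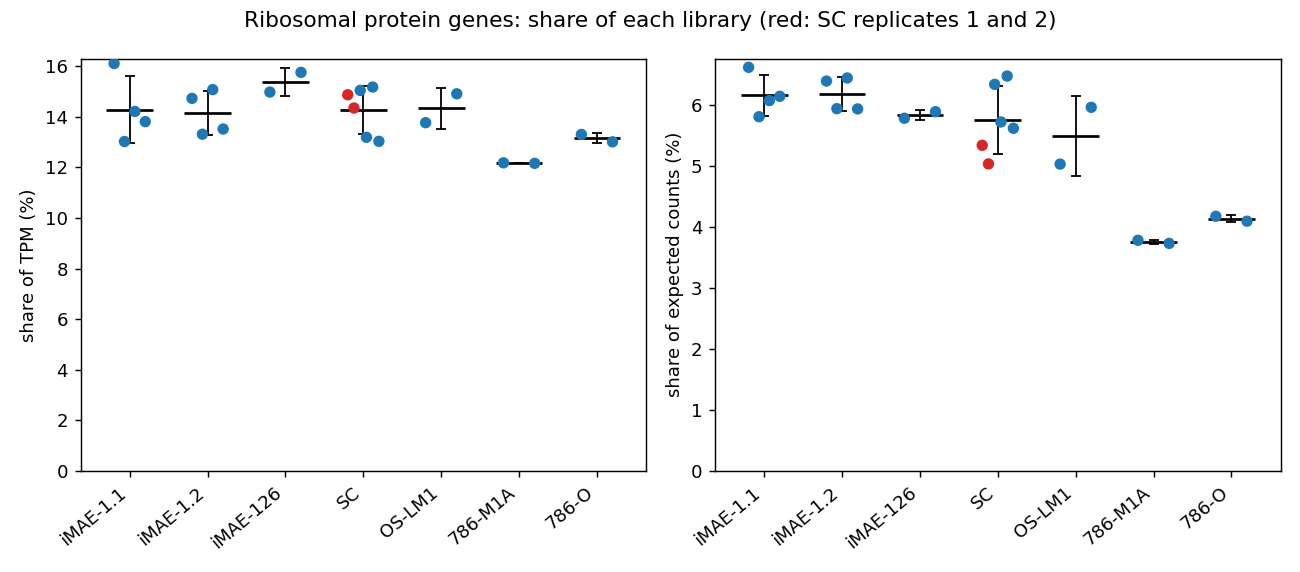
Share of each library's TPM (left) and of its expected counts (right) taken by the 77 members, in percent, by group; each point is a library, each line a group mean and each bar its SD, with SC replicates 1 and 2 in red. All 6 SC libraries, at 13.0 to 15.2% of TPM, sit above the 2 libraries of 786-M1A at 12.2%.

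Within SC replicates 3 to 6, iMAE-1.1 and iMAE-1.2, the share split by replicate number. It was 14.2 to 16.1% in the 6 libraries with an odd number and 13.0 to 13.8% in the 6 with an even number, so the sets did not overlap. As a share of counts they did overlap, at 6.08 to 6.62% in the odd-numbered libraries and 5.62 to 6.15% in the even-numbered ones. For 7 of 77 members (9.09%) every odd library had a higher CPM than every even one, and for 0 every odd library had a lower one, against 0.418% and 0.285% of the 11235 genes with a mean CPM of at least 5. The 7 were RPL39, RPLP0, RPS23, RPS27A, RPS3, RPS3A and RPS7. The labels give no meaning to these numbers, and the split was noticed in the data and not tested.

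Between the SC libraries, replicates 1 and 2 had lower counts of many ribosomal protein mRNAs than replicates 3 to 6. In edgeR's quasi-likelihood test with Benjamini-Hochberg adjustment over 15254 genes, 36 members were lower in replicates 1 and 2 and 2 were higher at an adjusted p under 0.05, where 45.2% of all genes tested were called, 22.1% lower and 23.1% higher. The median log2 fold change was −0.23 over the members and −0.03 over all genes tested. Of the 60S members 25 of 46 were lower and 1 was higher, and of the 40S members 11 of 31 were lower and 1 was higher. The sets were known from earlier results of these same data. Adjusted p-values and lack of overlap between the sets therefore describe these libraries and do not test the split.

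RPL38, a small 60S protein needed in mouse for translation of Hox mRNAs, had 322 and 282 CPM in SC replicates 1 and 2, against 557, 491, 578 and 496 CPM in replicates 3 to 6. The sets did not overlap, and the log2 fold change was −0.82 (SE 0.0931, edgeR adjusted p = 9.93e-07). RPL36A, a 60S protein near the exit site for tRNA, had 375 and 370.0 CPM in replicates 1 and 2, against 642, 562, 641 and 568 CPM in replicates 3 to 6 (log2 fold change −0.70, adjusted p = 8.57e-07). RPL14, RPL34 and RPL37 were each lower by the same amount to 2 decimals (log2 fold change −0.70), and none of them overlapped between the sets.

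The 2 members called higher belong to other sites of the ribosome. RPSA, a 40S protein that is also the precursor of a laminin receptor, had 936 and 859 CPM in replicates 1 and 2, against 774, 695, 802 and 670.0 CPM in replicates 3 to 6 (log2 fold change 0.28, SE 0.0918, edgeR adjusted p = 0.0174). RPLP0, the base of the stalk that recruits elongation factors, had 1452 and 1378 CPM in replicates 1 and 2, against 1231, 1106, 1249.8 and 1082 CPM in replicates 3 to 6 (0.27, adjusted p = 0.0134). Neither overlapped, but both calls were lost without SC replicate 1 (adjusted p = 0.161 for RPSA and 0.105 for RPLP0). Its stalk partner RPLP1 was lower (−0.31, adjusted p = 0.0109), a call lost without SC replicate 2 (adjusted p = 0.177), and RPLP2 missed the threshold at −0.20.

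The direction for the family depended on the scale. On log2(TPM + 1) with limma, 17 members were higher and 10 lower in SC replicates 1 and 2, where 38.8% of all genes tested were higher and 10.9% lower. The median on that scale was 0.03 over the members and 0.18 over all genes, so relative to all genes the members stood lower on both scales. Without SC replicate 2, edgeR called 20 members, 18 lower and 2 higher, where 15.5% of all genes tested were lower and 17.2% higher.

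Transcript length moved with this difference. Averaged over reads, the listed gene length was 3646 and 3716 bases in SC replicates 1 and 2, against 3264 to 3395 bases in replicates 3 to 6. The members' median log2 fold change was −0.30 up to 500 bases (15 members), −0.25 at 500 to 750 bases (29 members) and −0.07 at 750 to 1000 bases (17 members), and no member exceeded 5000 bases. Among non-members the medians were −0.66, −0.39 and −0.30 in the same bins and 0.27 above 5000 bases. Set against non-members in the same length bin, the members' median turned round to 0.15, and to 0.14 against those of them with a coding transcript. The 10 members longer than 1500 bases went the other way, at −0.50 (4 members), −0.28 (3 members) and −0.15 (3 members) in the 1500 to 2000, 2000 to 3000 and 3000 to 5000 base bins, where non-members were at −0.17, −0.06 and 0.04. The part of library preparation or RNA integrity in this was not tested.

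**Figure D2:**
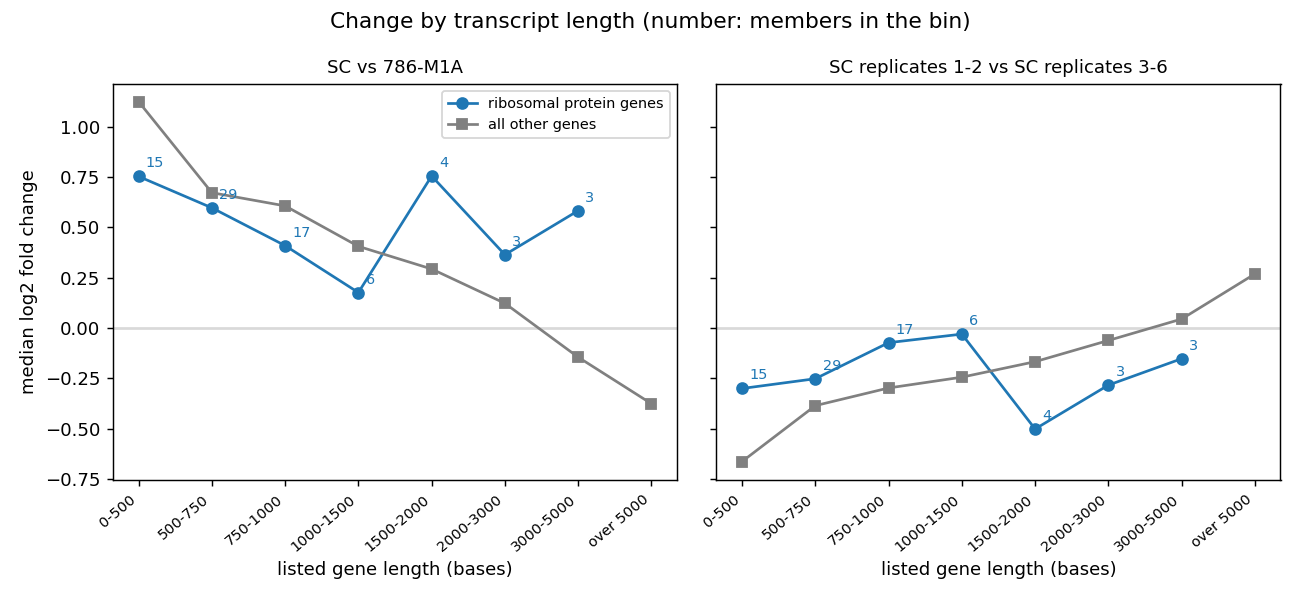
Median log2 fold change (vertical axis) by bin of listed gene length in bases (horizontal axis) for members and for the other genes tested, with the number of members beside each point. Up to 1500 bases the members' medians lie nearer 0 than those of the others in both SC comparisons, and above 1500 bases they do not.

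Genes of other lists also differed between the SC sets, and not all in 1 direction. The median listed length was 884 bases for respiratory chain genes, 1188 bases for mitochondrial ribosomal protein genes, 2369.5 bases for assembly genes and 467 bases for histone genes. Of 79 mitochondrial ribosomal protein genes tested, which encode a separate ribosome, 39 were lower and 2 higher in replicates 1 and 2 (median −0.29), led by MRPL32 and MRPL34 (both −0.77), MRPL41 (−0.72) and MRPL18 (−0.71). Of 99 genes with symbols of respiratory chain proteins, 50 were lower and 9 higher (median −0.28), such as ATP5I (−1.18) and NDUFC1 (−1.05). The 22 genes listed for ribosome assembly also include the transcription factor MYC and genes of RNA polymerase I transcription. Among these 22, 9 were lower and 3 higher, with MYC at −0.97, GAR1 at −0.78 and RRS1 at −0.69 but POLR1A, the catalytic subunit of RNA polymerase I, at 0.99. Other mRNAs with a terminal pyrimidine run were divided, 4 higher and 5 lower of 15. Of 16 genes listed by symbol as replication-dependent histones, 4 were higher and 1 lower, with HIST2H2BE at 2.20 and HIST1H1E at −2.12. Whether their reads came from mRNAs with a poly(A) tail was not checked. Paralogs of ribosomal proteins followed no single direction, with RPL22L1 at −1.11, RPL36AL at −0.53 and RPL7L1 at 0.65 among 1 higher and 4 lower of 7.

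SC was set against 786-M1A, which differs from it by the interference vector and its non-targeting guide. Ribosomal protein mRNAs were higher in SC on both subunits: edgeR called 57 of 77 members higher and 0 lower (60 at an unadjusted p under 0.05), where 27.8% of the 14769 genes tested were higher and 25.3% lower. DESeq2 called 58 higher and 1 lower, where 29.2% of all genes were higher and 29.7% lower. The median log2 fold change was 0.53 over the members and 0.07 over all genes, and 71 of 77 were above 0. Of the 60S members 35 of 46 were called, and of the 40S members 22 of 31.

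RPL38 had the largest change, with 322, 282, 557, 491, 578 and 496 CPM in SC and 189 and 186 CPM in 786-M1A (log2 fold change 1.29, SE 0.287, edgeR adjusted p = 0.00714). RPL36A followed, with 375, 370.0, 642, 562, 641 and 568 CPM in SC and 224 and 225 CPM in 786-M1A (1.24, SE 0.248, adjusted p = 0.0047). Every SC library lay above both 786-M1A libraries for each, and the gap was wider for replicates 3 to 6 than for replicates 1 and 2. RPL37 (1.22), RPL34 (1.19) and RPL14 (1.02) came next and likewise did not overlap.

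Among the lowest changes were those of RPL7 (−0.17, adjusted p = 0.127), RPSA (−0.12, 0.462), RPLP0 (−0.12, 0.44) and the zinc-binding RPS27 (−0.09, 0.349), none past the threshold in edgeR. On log2(TPM + 1), limma called 38 members higher and 3 lower, RPL7 (−0.44) and RPS27 (−0.36) among the lower ones, where 16.9% of all genes tested were higher and 33.9% lower, with a median of 0.26 over the members against −0.17 over all genes. The stalk proteins RPLP1 (0.63, edgeR adjusted p = 0.0073) and RPLP2 (0.75, 0.0025) were higher in SC while the stalk base RPLP0 was not called.

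These calls leaned on both 786-M1A libraries. The test called 20 members higher without 786-M1A replicate 1, where 9.42% of all genes tested were higher, and 10 without replicate 2, where 6.23% were. RPL38 was then at edgeR adjusted p = 0.0589 and 0.0706. With SC replicates 1 and 2 as the only SC libraries, 64 members were higher and 1 lower (median 0.41), where 24.1% of all genes tested were higher and 27.2% lower. With replicates 3 to 6 alone 64 were higher and 6 lower (median 0.59), where 39.7% and 39.4% of all genes were. Length moved here too: the read-weighted mean gene length was 3264 to 3716 bases in SC and 3929 and 3982 bases in 786-M1A, and the 15 members up to 500 bases had a median of 0.75 against 1.13 for non-members of that length. Against non-members in the same length bin the members' median reversed to −0.16, and it was −0.10 against those of them with a coding transcript. Vector, library preparation and time in culture cannot be told apart between these groups.

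Of the other lists in SC, 35 of 79 mitochondrial ribosomal protein genes were higher and 9 lower (MRPS21, 1.28), and 54 of 98 respiratory chain genes were higher and 7 lower (ATP5I, 1.74). Ribosome assembly genes were mixed, 6 higher and 4 lower of 22, with MYC at 0.88, RRS1 at 0.65 and NOP10 at 0.66 but POLR1A at −1.59. Other mRNAs with a terminal pyrimidine run were also mixed, 4 higher and 4 lower of 15: HNRNPA1 (0.67) and EEF1D (0.62) against the translation factor EIF4B (−0.90) and the poly(A)-binding protein PABPC1 (−0.72). Among 7 paralogs and fusion genes 5 were higher, RPL22L1, RPL36AL (0.99) and FAU (0.78) among them, and RPL7L1 was lower (−1.09). Of 12 histone genes tested 1 was lower (HIST2H2BF).

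**Figure D3:**
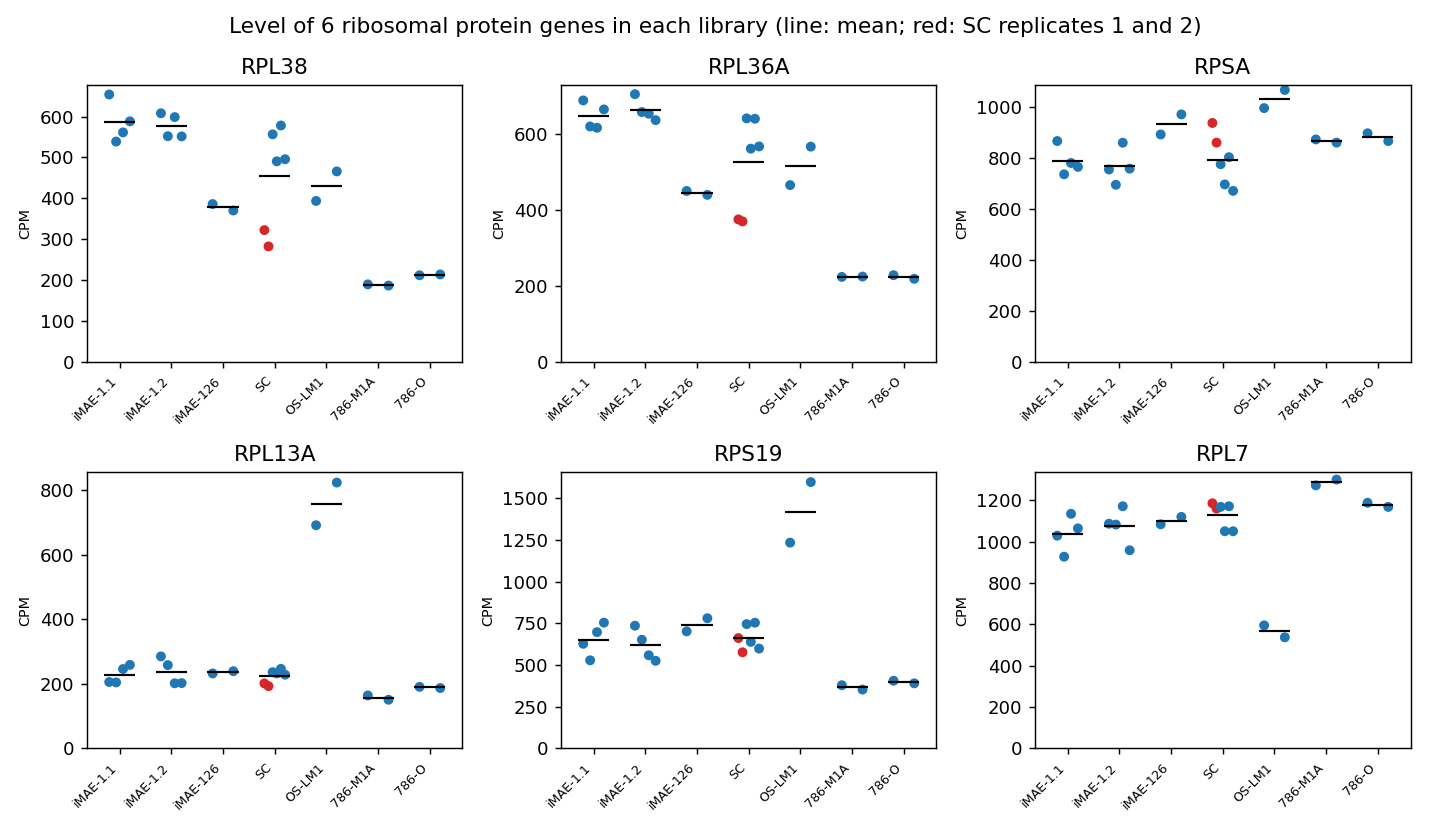
CPM per library of RPL38, RPL36A, RPSA, RPL13A, RPS19 and RPL7 in the 7 groups; each point is a library, each line a group mean, and SC replicates 1 and 2 are in red. RPL38 reaches 654 CPM in iMAE-1.1 and is lowest in 786-M1A at 186 CPM, and RPL13A and RPS19 stand highest in OS-LM1.

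The guides were compared with SC to ask what they change. No member passed the threshold with iMAE-1.1 or iMAE-1.2. For iMAE-1.1, edgeR called 0 of 77 (11 at an unadjusted p under 0.05, 0 by DESeq2), where 0.452% of 15254 genes were called (0.190% higher and 0.262% lower), and the median was 0.08 over the members against −0.0033 over all genes. For iMAE-1.2, edgeR called 0 (19 at an unadjusted p under 0.05), where 0.721% of genes were called, and the median was 0.10 against 0.0012. DESeq2 called 2 members for iMAE-1.2, 1 higher (RPL11) and 1 lower, where 1.65% of all genes tested were higher and 2.71% lower. All 3 guide comparisons share the SC libraries.

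The largest differences with these guides were small. RPL14 had 1308, 1189.7, 1219 and 1216 CPM in iMAE-1.1 and 1368, 1251, 1229 and 1229 CPM in iMAE-1.2, against 710.1, 652, 1166, 1063, 1162 and 1015 CPM in SC. All 8 guide libraries lay above all SC libraries, although the nearest SC libraries were close, and the log2 fold change was 0.35 for iMAE-1.1 (edgeR adjusted p = 0.222) and 0.40 for iMAE-1.2 (adjusted p = 0.152). RPL38 was at 0.36 and 0.35 (adjusted p = 0.265 and 0.243), with SC libraries on both sides. With SC replicates 3 to 6 as controls, 0 members were called for either guide and the medians were 0.03 and 0.04. Of all genes tested, 0.911% were then higher and 0.878% lower for iMAE-1.1, and 1.39% and 1.34% for iMAE-1.2.

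The libraries of these 2 guide groups formed a crossed pattern. Replicates 1 and 2 of iMAE-1.1 resembled replicates 3 and 4 of iMAE-1.2, and replicates 3 and 4 of iMAE-1.1 resembled replicates 1 and 2 of iMAE-1.2. For 6 of 77 members all of the first 4 libraries were above all of the other 4, and for 9 all were below, against 15.6% and 14.6% of the 11235 genes with a mean CPM of at least 5. The 15 were not spread evenly over the chromosomes: all 3 members on chromosome 16 (RPS2, RPS15A and RPL13) were above, and 8 of 12 on chromosome 19 were below. Among other genes 62.5% of 522 on chromosome 16 were above and 59.8% of 722 on chromosome 19 were below. RPS15A, a 40S protein, had 707, 583, 473 and 453 CPM in iMAE-1.1 replicates 1 to 4 and 483, 446, 683 and 626 CPM in iMAE-1.2 replicates 1 to 4. RPL28, a 60S protein encoded on chromosome 19, ran the other way with 699.6, 601, 787 and 877 CPM in iMAE-1.1 and 879, 794, 624 and 609 CPM in iMAE-1.2. With either pair of libraries of a guide group alone, 0 members were called against SC, and the medians were 0.09 to 0.13. In those fits 0.0262 to 0.118% of all genes tested were higher and 0.0131 to 0.171% lower. Over all genes the mean chi-square between the sets of iMAE-1.2 was 11.8 to 28.8, above the 3.95 and 6.43 within them. For iMAE-1.1 it was 12.2 to 23.4 between the sets and 14.6 and 5.53 within them, so that measure did not separate them. The split was noticed in the data, and its cause was not tested. Each library is placed by its label, and an exchange of labels between the groups, which would change what every iMAE-1.1 and iMAE-1.2 value means, was not tested.

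For iMAE-126, 1 member passed the threshold and it was lower, where 9.24% of genes tested were lower and 6.21% higher. The member was RPS26, a 40S protein at the mRNA exit channel that is mutated in Diamond-Blackfan anemia. It had 212 and 214 CPM in iMAE-126, against 232, 220.3, 384, 345, 395 and 325 CPM in SC (log2 fold change −0.59, SE 0.187, edgeR adjusted p = 0.0433). The 2 iMAE-126 libraries lay below all SC libraries, but by little below SC replicates 1 and 2, and with those as the controls the value was −0.10 (adjusted p = 0.55). The call was also lost when either iMAE-126 library, or any of SC replicates 3 to 6, was left out. With limma on log2(TPM + 1) the RPS26 call was lost (adjusted p = 0.0605). On that scale 1 other member was higher, where 7.68% of all genes tested were higher and 4.56% lower. The members' median there turned to 0.09, against 0.11 over all genes. Without SC replicate 1 the edgeR test called 4 members, 1 higher and 3 lower, where 10.7% of all genes tested were higher and 14% lower. Without SC replicate 2 it called 5, all lower, where 14.1% of all genes were. The read-weighted mean gene length was 3528 and 3573 bases in iMAE-126, closer to the 3646 and 3716 bases of SC replicates 1 and 2 than to replicates 3 to 6.

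The members' median for iMAE-126 was −0.04 against −0.0038 over all genes, and it was 0.13 with SC replicates 1 and 2 as controls, where 3 members were called higher and 0 lower and 6.31% of all genes tested were higher. The member with the highest value was RPL13 (0.30, edgeR adjusted p = 0.0758). Of the genes around the ribosome, 13 of 22 assembly genes were lower and 0 higher (median −0.42), with RRS1, a factor of 60S assembly, at −0.95, MYC at −0.88, GAR1 at −0.75 and NOP2 at −0.65. Several of these genes were also low in SC replicates 1 and 2 against replicates 3 to 6, as given above. With SC replicates 1 and 2 as controls, 11 of the 22 were lower and 0 higher (median −0.27), RRS1 was at −0.46 and NOP2 at −0.27, and MYC (−0.16, edgeR adjusted p = 0.235) and GAR1 (−0.19, 0.405) missed the threshold. Of 79 mitochondrial ribosomal protein genes 10 were lower and 0 higher (MRPL42, −0.86), and of 99 respiratory chain genes 5 were lower and 1 higher (NDUFA5, −0.65). With SC replicates 1 and 2 as controls the respiratory chain genes turned round, 13 higher and 1 lower (median 0.15), and 4 mitochondrial ribosomal protein genes were lower and 0 higher. NPM1 (−0.70) and NAP1L1 (−0.23) were lower among 15 other mRNAs with a terminal pyrimidine run, and RPL22L1 (−1.18) among 7 paralogs. HIST1H2BD was higher (1.14) among 16 histone genes. For iMAE-1.1 and iMAE-1.2 against all SC libraries the calls in these 6 lists were MRPS21 with both (0.69 and 0.65) and MRPS6 with iMAE-1.2 (0.51), all higher. With SC replicates 3 to 6 as controls, MRPS21 (0.52 and 0.48) and MRPS6 (0.30 and 0.38) were higher with both. For iMAE-1.2, COX17 (0.26) and HIST1H2BK (0.51) were then also higher, and MYC was lower (−0.26, edgeR adjusted p = 0.0317).

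**Figure D4:**
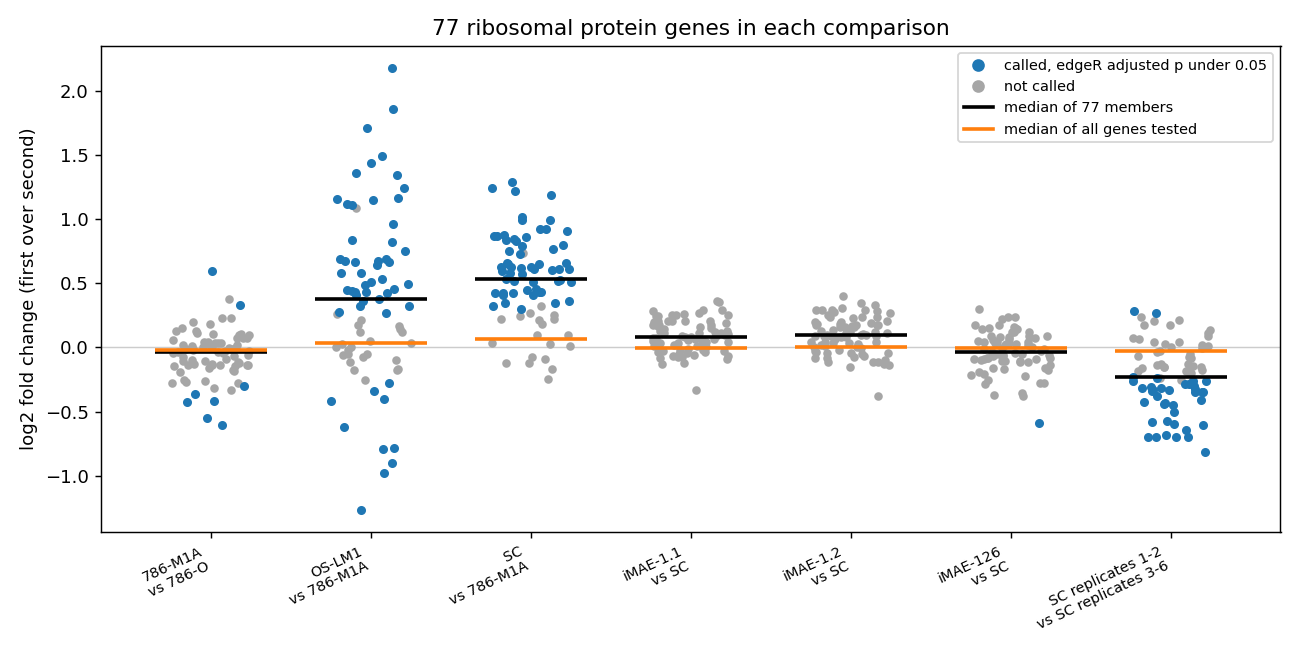
Log2 fold change of each of the 77 members (points) in the 7 comparisons, with called members in blue and the medians over the members and over all genes tested as lines. The members lie above 0 for 71 of 77 in SC against 786-M1A and on both sides of 0 for OS-LM1 against 786-M1A, from −1.27 to 2.18.

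786-M1A was compared with 786-O to ask what separates the metastatic derivative from its parent. How many members were called depended on the fit. With all 3 lines in the fit, edgeR called 2 higher and 6 lower of 77, where 14.7% of 16354 genes were higher and 16.3% lower, and the members' median was −0.04 against −0.02 over all genes. Of the 60S members 1 was higher and 5 lower, and of the 40S members 1 was higher and 1 lower. In this fit the members' share of calls, 8 of 77, was below the 31.0% of all genes called in either direction. The OS-LM1 libraries, which share this fit, differed from each other by a mean chi-square of 285 per member. It was 32.3 between those of 786-M1A and 15.9 between those of 786-O. A fit of 786-M1A and 786-O alone called 40 members, 10 higher and 30 lower, where 28.4% of all genes tested were higher and 28.1% lower.

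RPL10, which joins the 60S subunit late and is needed before it can pair with the 40S subunit, had 955 and 939.9 CPM in 786-M1A, against 642 and 608 CPM in 786-O. The libraries did not overlap (log2 fold change 0.60, SE 0.102, edgeR adjusted p = 0.0032). RPS2 was the other member called higher, with 2314 and 2204 CPM in 786-M1A, against 1861 and 1734 CPM in 786-O (0.33, adjusted p = 0.0413). RPS26 (0.38, adjusted p = 0.0561), RPL28 (0.23) and RPL7A (0.23) did not pass.

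RPS29, a small zinc-binding 40S protein, was the lowest, with 48.2 and 43.0 CPM in 786-M1A, against 69.4 and 69.1 CPM in 786-O (log2 fold change −0.60, SE 0.101, edgeR adjusted p = 0.00298). RPL23A, at the exit of the nascent chain tunnel, had 412 and 422 CPM in 786-M1A, against 616 and 604 CPM in 786-O (−0.55, adjusted p = 0.0036). Both were clear of overlap. RPL27 (−0.43), the intersubunit bridge protein RPL19 (−0.42), the MDM2-binding RPL23 (−0.36) and RPL4 (−0.30), which lines the exit tunnel, were also called lower.

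RPL23A, RPL27, RPL19 and RPL23 lie on chromosome 17, where 4 of 6 members were lower and 0 higher with a median of −0.39, and RPL38 (−0.18) and RPL26 (0.0015) were not called. Other genes on chromosome 17 stood low as well, with 290 lower and 76 higher of 939 tested and a median of −0.26. Around RPL10 on chromosome X the up to 50 nearest genes tested (25 on each side by RefSeq order) had a median of 0.53, and around RPL23A they had a median of −0.50. The neighbours of RPS29 had a median of −0.03. Copy number was not measured in these files. Calls in this comparison were sensitive to single libraries: 2 members were called without 786-M1A replicate 1, 1 without 786-M1A replicate 2, 2 without 786-O replicate 1 and 1 without 786-O replicate 2. Over all genes tested, 5.02 to 6.41% were higher and 8.47 to 8.81% lower in these fits. DESeq2 called 13 members, 3 higher and 10 lower, where 16.8% of all genes were higher and 15.5% lower. With limma on log2(TPM + 1) 2 were higher and 17 lower, where 10.6% and 16.9% of all genes were.

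Assembly genes were higher in 786-M1A, 10 of 22 with 0 lower (median 0.33), including RRS1 (0.84), RRP9 (0.73), BOP1 (0.67) and PES1 (0.65). Mitochondrial ribosomal protein genes were divided, 10 higher and 9 lower of 79 (MRPL24 at 0.61, MRPL45 at −0.61), and respiratory chain genes were more often lower, 17 against 4 of 99 (COX7C, −0.69). Of 15 other mRNAs with a terminal pyrimidine run 1 was called, PABPC1 (0.41), and of 7 paralogs 1, RPL26L1 (0.35), both higher. No histone gene of 28 was called in edgeR (7 at an unadjusted p under 0.05).

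OS-LM1 was set against 786-M1A as a metastatic line of another origin, and here members were called in both directions. In edgeR 43 were higher and 10 lower in OS-LM1, where 68.7% of 16354 genes were called, 34.4% higher and 34.3% lower, with a median of 0.37 over the members and 0.04 over all genes. The members' share of calls, 53 of 77, was near that of all genes. Their log2 fold changes ran from −0.367 to 1.197 between the 10th and the 90th percentile, a narrower range than the −1.32 to 2.23 of all genes. Of the 40S members 20 of 31 were higher and 2 lower, and of the 60S members 23 of 46 were higher and 8 lower. The comparison shares the 786-M1A libraries with those above.

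RPL13A, a 60S protein that in human monocytes also leaves the ribosome for the GAIT complex, had 692 and 824 CPM in OS-LM1 and 164 and 151 CPM in 786-M1A, a 4.53-fold difference (log2 fold change 2.18, SE 0.119, edgeR adjusted p = 2.36e-06). RPS19, the 40S protein most often mutated in Diamond-Blackfan anemia, had 1234 and 1597 CPM in OS-LM1 and 379 and 353 CPM in 786-M1A (1.86, SE 0.133, adjusted p = 9.42e-06). In both, the OS-LM1 libraries lay far above those of 786-M1A, and both genes lie on chromosome 19. RPL28 (1.49), RPS16 (1.36) and RPL18 (1.34) on that chromosome rose too. RPS29 (1.44), RPS23 (1.25) and the stalk protein RPLP1 (1.16) are encoded elsewhere and also rose.

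RPL7, a 60S protein, was lowest, with 596 and 538 CPM in OS-LM1 and 1273 and 1301 CPM in 786-M1A (log2 fold change −1.27, SE 0.105, edgeR adjusted p = 2.01e-05). RPL8, at the peptidyl transferase centre, had 634 and 728 CPM in OS-LM1 and 1284 and 1244 CPM in 786-M1A (−0.98, adjusted p = 8.41e-05). Neither overlapped between the lines. RPS20 (−0.90) and RPL30 (−0.79) fell as well, and with RPL7 and RPL8 they are the 4 members on chromosome 8. RPS2, the most abundant member, fell to 1304 and 1486 CPM in OS-LM1, against 2314 and 2204 CPM in 786-M1A (−0.78, adjusted p = 0.000254).

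Members on chromosomes 8 and 19 moved in the direction of the other genes there. On chromosome 8 the members' median was −0.94 and that of 535 other genes −0.64, of which 287 were lower and 119 higher. On chromosome 19, 8 of 12 members were higher and 2 lower with a median of 1.25, and the median of 1108 other genes was 0.44. Not every chromosome went this way. On chromosomes 2, 3, 4 and 6 the members' medians were 0.21, 0.14, 0.43 and 0.22, against −0.33, −0.31, −0.55 and −0.22 over the other genes. The signs of the medians also differed on chromosomes 1, 10, 16, 18 and 22, and were the same on the rest that hold members. On chromosome X all 4 members were higher with a median of 1.04, against 0.18 over 562 other genes, but RPL10 (0.75) and RPL39 (1.15) had neighbours with a median below 0, at −0.36 and −0.15. Across the 77 members, the log2 fold change and the median of the up to 50 neighbouring genes had a Pearson r of 0.77 and a Spearman rho of 0.75 for OS-LM1 against 786-M1A, and an r of 0.59 and a rho of 0.44 for 786-M1A against 786-O. Members that lie close together share neighbours, all points come from the same 6 libraries, and no p is given. For SC against 786-M1A the r was 0.18, and between the SC sets 0.044. RPL13A had neighbours at 1.45, RPS19 at 0.99 and RPL7 at −1.02, while RPS29 had neighbours at −0.0013. The part of copy number was not tested.

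**Figure D5:**
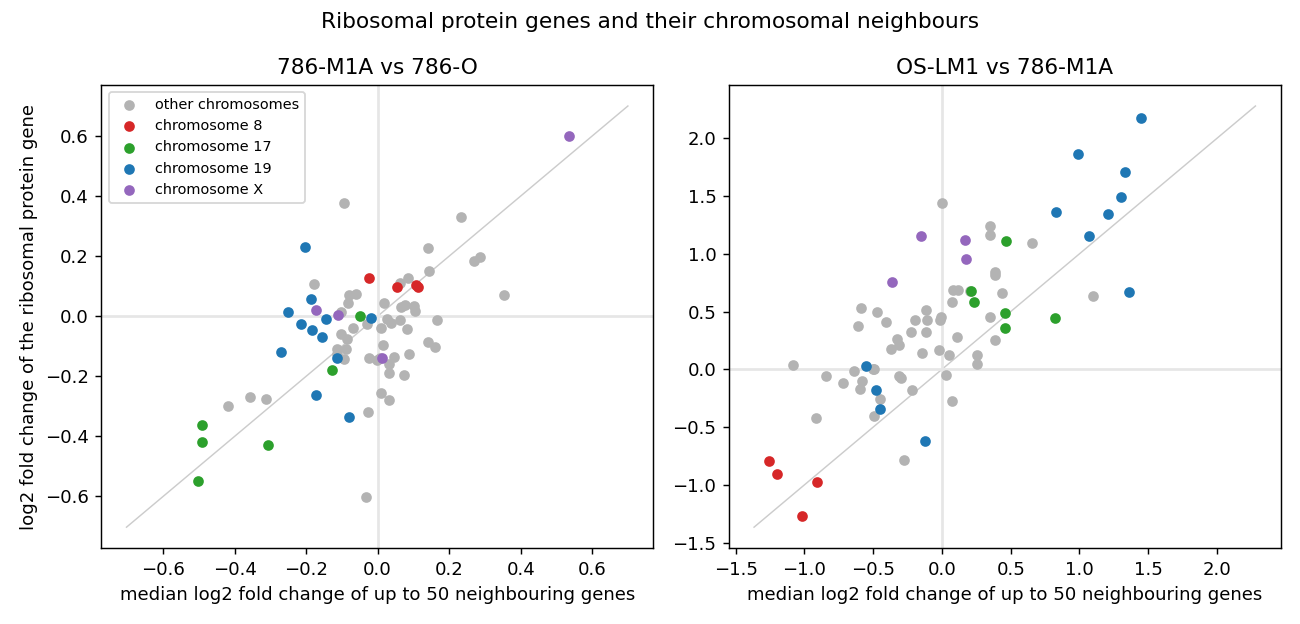
Log2 fold change of each member (vertical axis) against the median log2 fold change of its up to 50 neighbouring genes (horizontal axis), with 77 points in each comparison, coloured by chromosome, and a line of equal values. The r is 0.77 for OS-LM1 against 786-M1A and 0.59 for 786-M1A against 786-O.

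Length moved here as well: against non-members in the same length bin the members' median for OS-LM1 reversed to −0.17 (−0.10 against those with a coding transcript), and the read-weighted mean gene length was 3617 and 3391 bases in OS-LM1 against 3929 and 3982 bases in 786-M1A. RPLP0 (0.68, edgeR adjusted p = 0.000325) and RPLP2 (0.66, 0.00118) rose with RPLP1, so that the mRNA of every stalk protein was higher in OS-LM1. RPSA (0.17, 0.148) missed the threshold.

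The other lists differed in direction in OS-LM1. Assembly genes were lower in 16 and higher in 4 of 22 (median −0.69), with POLR1A at −2.08, BOP1 at −1.85, NCL at −1.54 and RRS1 at −1.52. Among other mRNAs with a terminal pyrimidine run, 9 were lower and 2 higher of 15 (median −0.33), with PABPC1 at −2.69, EIF3H at −1.55 and EEF2 at −1.38 against TPT1 at 1.67. Mitochondrial ribosomal protein genes were divided, 33 higher and 28 lower of 79 (MRPS36 at 1.74, MRPL13 at −1.75), and respiratory chain genes were more often higher, 49 against 19 of 99 (NDUFA3, 2.50). Of the paralogs 3 were higher (RPS27L, 1.46, and RPL36AL, 1.07, among them) and RPL7L1 and RPL26L1 (−0.72) lower. Of 28 histone genes 5 were higher and 3 lower.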

How the data were processed

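Per the labels' protocols, RNA was polyA-selected and made into stranded libraries (dUTP, 15 PCR cycles). Bowtie2, RSEM and the hg19 build appear in the submitters' processing notes; their versions and the strand setting were not found in these sources. Each deposited table gives, per gene, the expected count (the estimated count that the authors made with RSEM, per the submitters' processing notes), the TPM and the length. Effective length equalled length throughout the deposited tables, so the authors' TPM carries no correction for fragment length.

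Members and lists were chosen with earlier results of these data known. After rounding, expected counts went into edgeR 4.0.16 under R 4.3.3 (robust quasi-likelihood fit, TMM factors, minimum count 10 in filterByExpr, Benjamini-Hochberg over all genes tested, called at an adjusted p under 0.05). The lines were fitted on 6 libraries, the guides and the SC sets on all 16 CRISPR interference libraries, and SC against 786-M1A on 8. All 77 members passed the filter in every comparison, with a lowest estimated count of 811 in a library. CPM used TMM factors over all 22 libraries. Alternatives were DESeq2 1.42.0, limma 3.58.1 on log2(TPM + 1) and log2(TPM + 0.1), other factors, no filter, compared groups alone, a replicate block, subsets of SC and of either iMAE-1 guide group, an odd or even number term, length bins, and each library left out. The subsets of the iMAE-1 groups, the odd or even term and the length bins of coding non-members were added after the data were seen. Neighbours came from RefSeq gene order (GRCh38.p14), which placed 23991 of 25343 genes.

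Named members were the 5 highest and 5 lowest changes per comparison, the 4 highest and 4 lowest mean TPM, the 3 largest and 3 smallest spreads between groups, the stalk proteins and RPSA, with up to 4 called genes per list. RPL4, RPS16, RPL18, RPS23, RPS15A and the members of the odd or even and crossed splits were chosen after their values were seen. A few genes that this rule names are not reported here. The edgeR script was tested on simulated counts with 200 changed genes. It recovered 8.96% (SC against 786-M1A) to 52.2% (the SC sets) of 1.5-fold changes, with 50.7% for iMAE-1.1 and 41.8% for iMAE-1.2. Of 4-fold changes it recovered 80.3 to 92.4%. Small changes can therefore be missed. False calls ranged from 2 of 142 (the SC sets) to 19 of 160 (786-M1A against 786-O).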

Additional observations from a re-analysis of the deposited data

Results flagged for a closer look

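Dixon's test was applied in the 3 groups with at least 4 libraries (SC and both iMAE-1 guides) to the members' share of TPM and to 25 members, those with the 5 highest and 5 lowest changes in each comparison of SC or a guide, the stalk proteins and RPSA. Members named only for other reasons were not tested, and chance alone picks out about 1 in 20 such groups; 5 of 78 stood out. RPL11 was low in 1 iMAE-1.1 library, at 1059 CPM where the other 3 had 1195 to 1205 CPM. RPL8 was low in an iMAE-1.1 library, at 1415.0 CPM where the others had 1682 to 1717 CPM. RPL14 was high in an iMAE-1.2 library, at 1368 CPM where the others had 1229 to 1251 CPM. RPL21 was high in an iMAE-1.2 library, at 231 CPM where the others had 135 to 149 CPM, and its estimated counts were not whole in every library. RPS27 was high in an iMAE-1.2 library, at 376 CPM where the others had 308 to 311 CPM. None of the 5 members was called for these guides by edgeR, and the cause of these values was not tested.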

How the results depend on the processing

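For 786-M1A against 786-O, DESeq2 called 13 members, where 16.8% of all genes were higher and 15.5% lower. Limma called 19 on either TPM pseudocount, where 10.6% were higher and 16.9 to 17.4% lower. The compared groups alone gave 40 (28.4% of all genes higher and 28.1% lower) and the replicate block 5 (12% and 14.1%). Fewer members were called with a library left out, as given above. Their median was 0.0054 with factors computed without the members, 0.0153 with no filter, −0.112 with limma, 0.0155 less non-members in the same length bin, −0.0668 less coding non-members in that bin (an alternative added after the data were seen), and −0.0519 to −0.0093 with a library left out. For OS-LM1 against 786-M1A the median reversed to −0.167 by length (−0.102 with coding non-members), and it was 0.316 to 0.399 with a library left out. For SC against 786-M1A it was 0.256 and 0.257 with limma and reversed to −0.159 by length (−0.0963 with coding non-members), and 10 to 57 members were called with a library left out. By length the median was −0.0574 for iMAE-1.1 and −0.0304 for iMAE-1.2 (−0.0228 and 0.0018 with coding non-members). For iMAE-1.2 DESeq2 called 2 members, where 1.65% of all genes tested were higher and 2.71% lower. For iMAE-126, 0 members were called with the compared groups alone (2.67% of all genes higher and 3.30% lower) or the replicate block (0.151% and 0.249%). With SC replicates 1 and 2 as controls 3 were called (median 0.127), where 6.31% of all genes were higher and 10.4% lower. With an SC library left out 0 to 5 were called, where 4.30 to 11.1% of all genes were higher and 5.91 to 14.1% lower. Between the SC sets the median was 0.0330 with limma and reversed to 0.154 by length (0.138 with coding non-members), and 20 to 40 were called with a library left out. As shares of counts the members made up 6.16% with iMAE-1.1, 6.18% with iMAE-1.2, 5.84% with iMAE-126, 5.76% in SC, 5.50% in OS-LM1, 3.76% in 786-M1A and 4.14% in 786-O, lower than of TPM by construction since they are short. Other causes were not tested. Over all alternatives calls of named members were gained 58 times and lost 59 times, with 0 changes of sign of a called value. Where 1 library of a group was left, it was assumed to vary like the other groups. Over all genes same-numbered libraries did not all deviate together (correlations of −0.470 to 0.156 over 18 pairs of CRISPR interference groups, −0.214 to 0.103 over 6 pairs of lines, −0.0327 to 0.123 over 2 pairs of SC and 786-M1A). In a line with 2 libraries the deviations from the group mean mirror each other, so both numbers gave the same correlation between lines. In SC and the iMAE-1 groups the splits described above also enter the deviations. This check therefore cannot decide whether libraries were paired. The numbers were not taken as pairs, although the members' share of TPM split by odd and even number. Under the replicate block SC against 786-M1A gave 69 members higher and 2 lower, where 28.5% of all genes were higher and 31.4% lower.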
